A study of Mus musculus with 75 samples.

Results

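Interferon-stimulated genes were described in whole lung tissue of mice with bleomycin (BLEO) induced lung fibrosis by following 9 genes, *Irf7*, *Isg15*, *Usp18*, *Ifit1*, *Ifit3*, *Mx1*, *Rsad2*, *Oasl2* and *Ifi44*. The genes were found by their symbols in a table of 55536 genes, and all 9 passed the filter on low counts together with 16221 genes in all. Total counts per library ranged from 9240291 to 14665247. The tissue was the right lung's inferior lobe of 75 male C57BL/6JRj mice, 12 to 14 weeks old at the start, and each mouse gave 1 library. BLEO is a cancer drug whose toxicity damages lung epithelium. It was given as a single intratracheal instillation, and only mice with a mild or moderate loss of body weight in the first week entered the groups of BLEO-IPF mice. The control group (CTRL) held 10 mice. BLEO-IPF mice were taken 7 days after BLEO (10 mice), after 14, 21, 28 or 35 days (12 mice per time point) or after 42 days (7 mice), and these days are written D7 to D42 where values are listed. The titles of the samples call the CTRL mice saline, whereas the treatment notes call them untreated. The labels give no genetic alteration for any group, and every comparison with CTRL used the same 10 CTRL mice. Mice with little or with severe weight loss are therefore not represented.

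Interferons are secreted proteins that warn cells of infection or damage. Type I and type III interferons bind receptors that activate the kinases JAK1 and TYK2, which phosphorylate transcription factors of the STAT family. Together with IRF9 these enter the nucleus as a complex that binds the interferon-stimulated response element (ISRE) in front of its target genes, whereas type II interferon (IFN-gamma) acts mainly on the gamma-activated sequence (GAS). In the lung, epithelial cells, macrophages and plasmacytoid dendritic cells are known to take part in this response.

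The 9 genes lie on 8 chromosomes of the GRCm38 genome, and their counts were deposited per gene of Ensembl release 96. *Ifit3* (chr19:34583531-34588731) and *Ifit1* (chr19:34640871-34650009) are neighbours on the plus strand of chromosome 19. *Isg15* lies at chr4:156199424-156200818 on the minus strand, *Irf7* at chr7:141262706-141266481 on the minus strand and *Rsad2* at chr12:26442746-26456452 on the minus strand. *Mx1* lies at chr16:97447035-97462907 on the minus strand, *Usp18* at chr6:121245906-121270917 on the plus strand, *Oasl2* at chr5:114896936-114912234 on the plus strand and *Ifi44* at chr3:151730922-151749960 on the minus strand.

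Promoters of 7 of the 9 genes were found in RefSeq (GRCm38.p6), those of *Mx1* and *Usp18* being the exceptions. The 250 bases in front of each RefSeq start were searched on both strands for the core of the ISRE, which is GAAA followed by any 2 bases and GAAA again, and for the GAS core, TTCNNNGAA, which reads the same on both strands. The ISRE core was found for *Isg15*, *Ifit1*, *Ifit3* and *Rsad2*, that is 4 of 7 promoters, against 2.98% of all 32851 promoters of the same length. It was also found in 8 of 14 promoters of the genes known to respond to IFN-gamma and in 10 of 37 promoters of other type I interferon-stimulated genes, which are described further on. The GAS core was found in 0 of the 7, against 7.02% of all promoters. The sequences with a match are shown because they carry the element that the complex with IRF9 is known to bind. They are written 5′ to 3′ on the strand of the gene, ending in front of the first annotated base, with matches to the ISRE core, read on either strand, in capitals.
*Isg15*, chr4:156200819-156201018, minus strand: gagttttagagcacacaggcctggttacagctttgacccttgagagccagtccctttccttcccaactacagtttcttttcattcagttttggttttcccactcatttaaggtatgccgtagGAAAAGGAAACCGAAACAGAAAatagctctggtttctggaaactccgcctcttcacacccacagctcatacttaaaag
*Ifit1*, chr19:34640689-34640870, plus strand: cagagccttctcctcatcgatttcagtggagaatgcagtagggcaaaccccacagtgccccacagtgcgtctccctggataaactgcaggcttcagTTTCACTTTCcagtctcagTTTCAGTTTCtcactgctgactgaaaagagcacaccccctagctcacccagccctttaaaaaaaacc
*Ifit3*, chr19:34583329-34583528, plus strand: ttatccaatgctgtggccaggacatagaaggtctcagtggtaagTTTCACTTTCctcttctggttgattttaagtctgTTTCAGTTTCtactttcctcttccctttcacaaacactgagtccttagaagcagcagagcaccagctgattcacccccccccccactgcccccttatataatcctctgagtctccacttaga
*Rsad2*, chr12:26456453-26456652, minus strand: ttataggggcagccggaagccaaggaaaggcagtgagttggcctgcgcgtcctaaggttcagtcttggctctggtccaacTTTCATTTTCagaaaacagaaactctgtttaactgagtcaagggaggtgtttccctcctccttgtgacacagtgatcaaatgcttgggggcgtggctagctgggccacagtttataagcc
In *Isg15* 3 overlapping matches formed 1 run between bases -78 and -57 from the start. *Ifit1* and *Ifit3* each held 2 matches, with the same letters TTTCACTTTC and TTTCAGTTTC in the same order, and *Rsad2* held 1 match between bases -120 and -111. *Irf7*, *Oasl2* and *Ifi44* held no match to these exact letters in the window.

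Most of the 9 genes were higher in BLEO-IPF mice than in CTRL mice from day 7 to day 35. The largest increases were seen on day 14 for *Mx1* (3.45-fold), *Isg15* (3.21-fold), *Rsad2* (2.84-fold), *Irf7* (2.43-fold) and *Ifit1* (2.33-fold), whereas *Oasl2*, *Ifi44* and *Usp18* rose by at most 1.49-fold on any day on which they passed the test. *Ifit3* did not pass the test on any day in the fit of all mice. Folds are from edgeR's quasi-likelihood fit of all 75 mice, a gene being called when its p-value, adjusted by the Benjamini-Hochberg method over all 16221 genes, was under 0.05. On day 7, 6 of the 9 genes were called higher, when 24.8% of all genes tested were called higher. On day 14 it was 8 of 9 (32.4% of all genes), on day 21 6 of 9 (28.3%), on day 28 5 of 9 (24%) and on day 35 6 of 9 (16.9%). On day 42, when 13.6% of all genes were called higher, edgeR called 0 of the 9 in either direction, as did DESeq2, and 1 gene, *Ifit3*, had an unadjusted p under 0.05. In a fit of the CTRL and day 42 mice alone, edgeR called 5 of the 9 genes higher on day 42, *Irf7*, *Isg15*, *Ifit1*, *Mx1* and *Rsad2*, and *Ifit3* lower. The share of all genes called in that fit is not given here, so this count has no background to be read against. No gene of the 9 was called lower on days 7 to 35 by edgeR in all 75 mice or by DESeq2, and none had an unadjusted p under 0.05 in that direction. The median log2FC of the 9 genes was 0.76, 1.22, 0.99, 0.47, 0.63 and 0.28 on the 6 successive days, and the median over all genes tested stayed between -0.0024 and 0.018. In whole tissue, more cells that express a gene and more RNA per cell cannot be told apart.

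**Figure D1:**
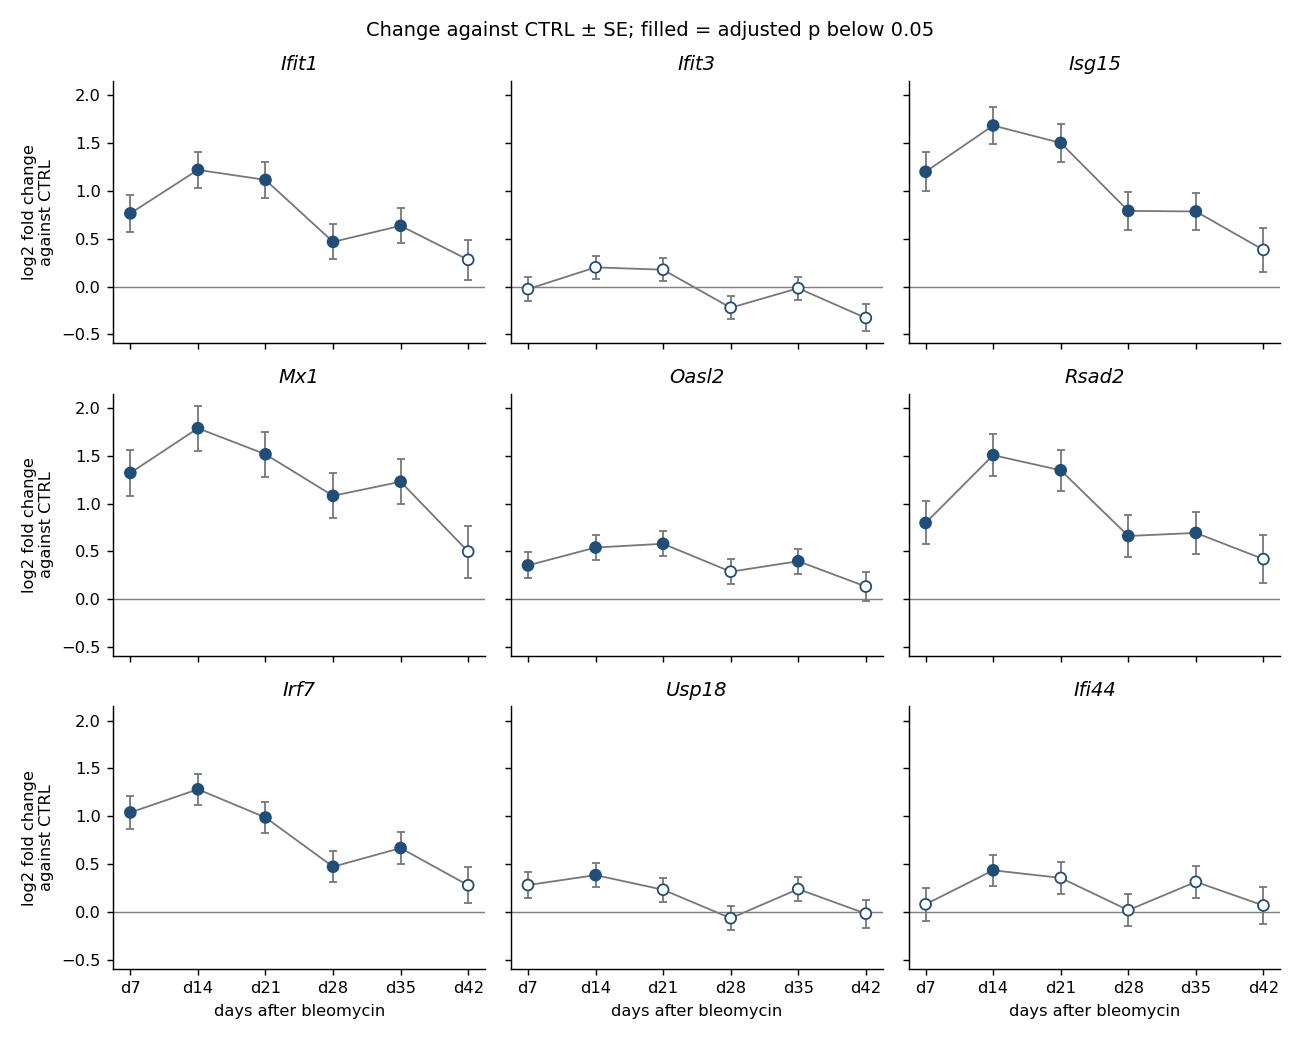
Log2 fold change against CTRL (vertical axis) on each day after BLEO (horizontal axis) for the 9 genes, with the standard error of the fit; filled points have an edgeR adjusted p under 0.05. Filled points reach the highest value on day 14 for *Mx1* (1.79) and *Isg15* (1.68), and no point is filled on day 42 or for *Ifit3*.

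*Irf7* encodes the transcription factor that amplifies type I interferon production after its own induction. In CTRL mice its level in CPM, counts scaled to a common library size, ranged from 17.3 to 25.6 with a median of 19.8. It ranged from 30.2 to 64.3 (median 37.99) on D7, from 25.3 to 87.7 (median 44.4) on D14 and from 28.7 to 66.9 (median 34.6) on D21. All 10 mice on D7, 11 of 12 on D14 and all 12 on D21 thus lay above the highest CTRL mouse. Levels were 18.7 to 41.8 (median 28.1) on D28, 18.4 to 50.5 (median 32.5) on D35 and 20.8 to 28.2 (median 26.2) on D42, overlapping with CTRL on all 3 days. The log2FC was 1.04 ± 0.17 (SE) on D7, 1.28 ± 0.16 on D14, 0.99 ± 0.16 on D21, 0.47 ± 0.16 on D28, 0.67 ± 0.16 on D35 and 0.28 ± 0.19 on D42. By edgeR, the adjusted p was at most 0.0151 up to day 35 and was 0.282 on D42. *Irf7* shares 45 exonic bases with *Phrf1* on the opposite strand, which had 55427 counts over all mice against 28946 for *Irf7*, and how the counting treated strand is not given in the sources used here.

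*Isg15* encodes a ubiquitin-like protein that is attached to other proteins, and *Usp18* encodes the protease that removes it again and also blocks the type I interferon receptor. *Isg15* in CTRL mice ranged from 5.44 to 10.9 CPM (median 7.11), against 12.2 to 22.4 (median 18.3) on D7, 12.5 to 40.2 (median 22.5) on D14 and 11.7 to 47.7 (median 19.2) on D21. Of the 9 genes it alone had every mouse of D7, D14 and D21 above every CTRL mouse. Such a separation was seen for 3 of the 9 genes on D7, 3 on D14 and 4 on D21, when 7.39%, 9.46% and 6.84% of all genes showed it. Levels on D28 were 9.08 to 16.9 (median 13.2), on D35 7.22 to 23.2 (median 12.4) and on D42 7.51 to 12.9 CPM (median 9.17). These ranges overlapped with CTRL, although all 12 mice on D28, all 12 on D35 and all 7 on D42 lay above the CTRL median. Its log2FC was 1.20 ± 0.20 on D7, 1.68 ± 0.20 on D14, 1.501 ± 0.20 on D21, 0.79 ± 0.20 on D28, 0.78 ± 0.20 on D35 and 0.38 ± 0.23 on D42, with edgeR adjusted p between 4.79e-11 (day 14) and 0.00145 (day 35) up to day 35 and 0.216 on D42.

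*Usp18* moved little. It ranged from 17.8 to 24.7 CPM (median 21.6) in the CTRL group, from 15.6 to 41.9 (median 25.6) on D14 and from 17.7 to 24.2 (median 22.2) on D42. On D14, 6 of 12 mice lay above the highest CTRL mouse and the lowest mouse lay below all CTRL mice, so the groups overlapped at both ends. Day 14 was the only day on which it was called higher (log2FC 0.38 ± 0.13, edgeR adjusted p = 0.00718). The log2FC on D7 was 0.28 ± 0.13 (edgeR adjusted p = 0.0759), and medians on days 7, 21, 28 and 35 were 25.7, 23.97, 19.8 and 25.5 CPM. *Usp18* shares 124 exonic bases with *Gm44148* on the opposite strand, which had 125 counts over all mice.

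*Ifit1* and *Ifit3* encode tetratricopeptide repeat proteins that bind foreign RNA, and they lie side by side. *Ifit1* rose from a CTRL range of 19.5 to 31.7 CPM (median 22.1) to 33.8 to 45.5 (median 37.03) on D7, 27.6 to 92.8 (median 44.7) on D14 and 29.5 to 94.3 (median 43.05) on D21. Every mouse on D7 and 11 of 12 mice on each of days 14 and 21 exceeded the highest CTRL mouse. Levels then lay at 24.3 to 42.7 (median 32.2) on D28, 16.9 to 67.6 (median 30.9) on D35 and 23.9 to 33.3 CPM (median 27.5) on D42. The log2FC was 0.76 ± 0.19, 1.22 ± 0.18, 1.11 ± 0.18, 0.47 ± 0.18, 0.63 ± 0.18 and 0.28 ± 0.21 in the order of the days. The edgeR adjusted p was 5.44e-08 on D14 and 0.0338 on D28. This last call was lost without day 28 mouse 2 or 6 or CTRL mouse 3, 8 or 9, when the log2FC was 0.42 to 0.45 and the edgeR adjusted p 0.053 to 0.0636.

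*Ifit3*, by contrast, had about the same median in CTRL mice (71.5 CPM, range 60.3 to 76.3) as on D7 (70.3, range 55.3 to 85.98), D14 (74.3, range 49.2 to 112) and D21 (71.5, range 58.7 to 120). The BLEO-IPF mice on days 14 and 21 spread on both sides of the CTRL mice, with 6 and 5 of 12 mice above the highest of them. Medians were 60.1 on D28 (range 43.8 to 76.5), 66.7 on D35 (range 49.97 to 113) and 56.2 CPM on D42 (range 42.8 to 60.4), and on D42 all 7 mice lay below the CTRL median. Its log2FC was -0.03 ± 0.13 on D7, 0.20 ± 0.12 on D14, 0.18 ± 0.12 on D21, -0.22 ± 0.12 on D28, -0.02 ± 0.12 on D35 and -0.33 ± 0.14 on D42, with edgeR adjusted p of at least 0.077 on each day. The test of any difference among the 7 groups gave an edgeR adjusted p of 0.00144 for *Ifit3*, and day 42 lay below day 14 (log2FC -0.53 ± 0.14, edgeR adjusted p = 0.00191). Of all windows of 75 bases in the *Ifit3* transcripts, 41.1% also occur in its near-identical copy *Ifit3b*, so reads may have been lost from it or split, and its values are uncertain. *Ifit3b* itself was not called on days 7, 14, 21 and 35 and was lower on days 28 and 42 (on D42, log2FC -0.55 ± 0.17, edgeR adjusted p = 0.0163). *Ifit1* shares 5.19% of such windows with *Ifit1bl2* and *Mx1* 1.71% with *Mx2*, and the other 6 genes share none.

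Among the antiviral effectors, *Mx1* encodes a dynamin-like GTPase, and laboratory strains such as C57BL/6 are known to carry a damaged copy that is still transcribed. It had the lowest CPM of the 9 genes in CTRL mice and was the one that rose most. *Mx1* in CTRL mice ranged from 1.94 to 4.89 CPM (median 3.25), against 4.87 to 13.3 (median 7.93) on D7, 5.23 to 20.9 (median 10.7) on D14 and 6.04 to 18.9 (median 8.05) on D21. All mice on days 14 and 21 and 9 of 10 on D7 exceeded every CTRL mouse. Levels on D28 were 3.18 to 13.1 (median 5.96), on D35 3.19 to 12.6 (median 7.56) and on D42 3.46 to 6.37 CPM (median 4.07). Its log2FC was 1.32 ± 0.24, 1.79 ± 0.24, 1.51 ± 0.24, 1.08 ± 0.24, 1.23 ± 0.24 and 0.50 ± 0.27 in the order of the days, with an edgeR adjusted p of at most 0.000164 up to day 35 and of 0.176 on D42.

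*Rsad2* encodes viperin, a radical SAM enzyme that makes a chain-terminating nucleotide. It ranged from 6.21 to 11.4 CPM (median 8.36) in the CTRL group, from 9.60 to 20.4 (median 14.6) on D7, from 11.6 to 41.7 (median 20.7) on D14 and from 12.4 to 45.6 (median 19.2) on D21. All 12 mice on D14 and all 12 on D21 lay above the CTRL range, and 4 of the day 14 mice lay between 37.5 and 41.7 CPM with the next at 24.9. On days 28, 35 and 42 it ranged from 9.61 to 18.1 (median 13.1), from 3.95 to 26.2 (median 13.2) and from 6.75 to 17.2 CPM (median 10.9). On D35 a mouse at 3.95 CPM lay below all CTRL mice while 9 of 12 lay above them. The log2FC was 0.80 ± 0.22, 1.51 ± 0.22, 1.35 ± 0.22, 0.66 ± 0.22, 0.69 ± 0.22 and 0.42 ± 0.25 in the order of the days, with an edgeR adjusted p of at most 0.0106 up to day 35 and of 0.213 on D42.

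*Oasl2*, of the family of oligoadenylate synthetase-like proteins, ranged from 35.3 to 58.1 CPM (median 47.2) in CTRL mice. It ranged from 46.1 to 78.9 (median 57.03) on D7, from 29.2 to 114 (median 62.1) on D14, from 55.6 to 90.4 (median 68.5) on D21, from 43.03 to 69.99 (median 56.6) on D28, from 39.6 to 87.1 (median 64.1) on D35 and from 46.2 to 63.3 (median 48.7) on D42. Day 21 mice came closest to a separation, 11 of 12 being above the highest CTRL mouse, whereas day 14 held both the highest and the lowest mouse of all 75. It was called on days 7, 14, 21 and 35, with a log2FC of 0.35 ± 0.14, 0.54 ± 0.13, 0.58 ± 0.13 and 0.40 ± 0.13 and edgeR adjusted p of 0.0273, 0.000273, 0.000143 and 0.0155. The call on D7 was lost without day 7 mouse 1, 2, 4 or 8 or CTRL mouse 8, when the log2FC was 0.29 to 0.32 and the edgeR adjusted p 0.0559 to 0.0807. On D28 (log2FC 0.29 ± 0.13, edgeR adjusted p = 0.0665) a call was gained without CTRL mouse 5, day 14 mouse 8 or day 28 mouse 5 or 9, with an edgeR adjusted p of 0.0437 to 0.0492.

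*Ifi44* ranged from 9.14 to 14.2 CPM (median 10.7) in the CTRL group, from 8.40 to 28.1 (median 13.8) on D14 and from 11.2 to 17.3 (median 14.03) on D21. All 12 mice on D21 lay above the CTRL median but 7 of them within the CTRL range. It was called on D14 alone (log2FC 0.44 ± 0.16, edgeR adjusted p = 0.0177), a call that rested on D14 mouse 7, since without it the log2FC was 0.30 and the edgeR adjusted p 0.0949. On D21 the log2FC was 0.36 ± 0.16 (edgeR adjusted p = 0.0603), and the adjusted p was 0.0402 to 0.0495 without CTRL mouse 5 or day 21 mouse 10 or 11. Medians on days 7, 28, 35 and 42 were 12.2, 10.8, 13.3 and 11.9 CPM.

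**Figure D2:**
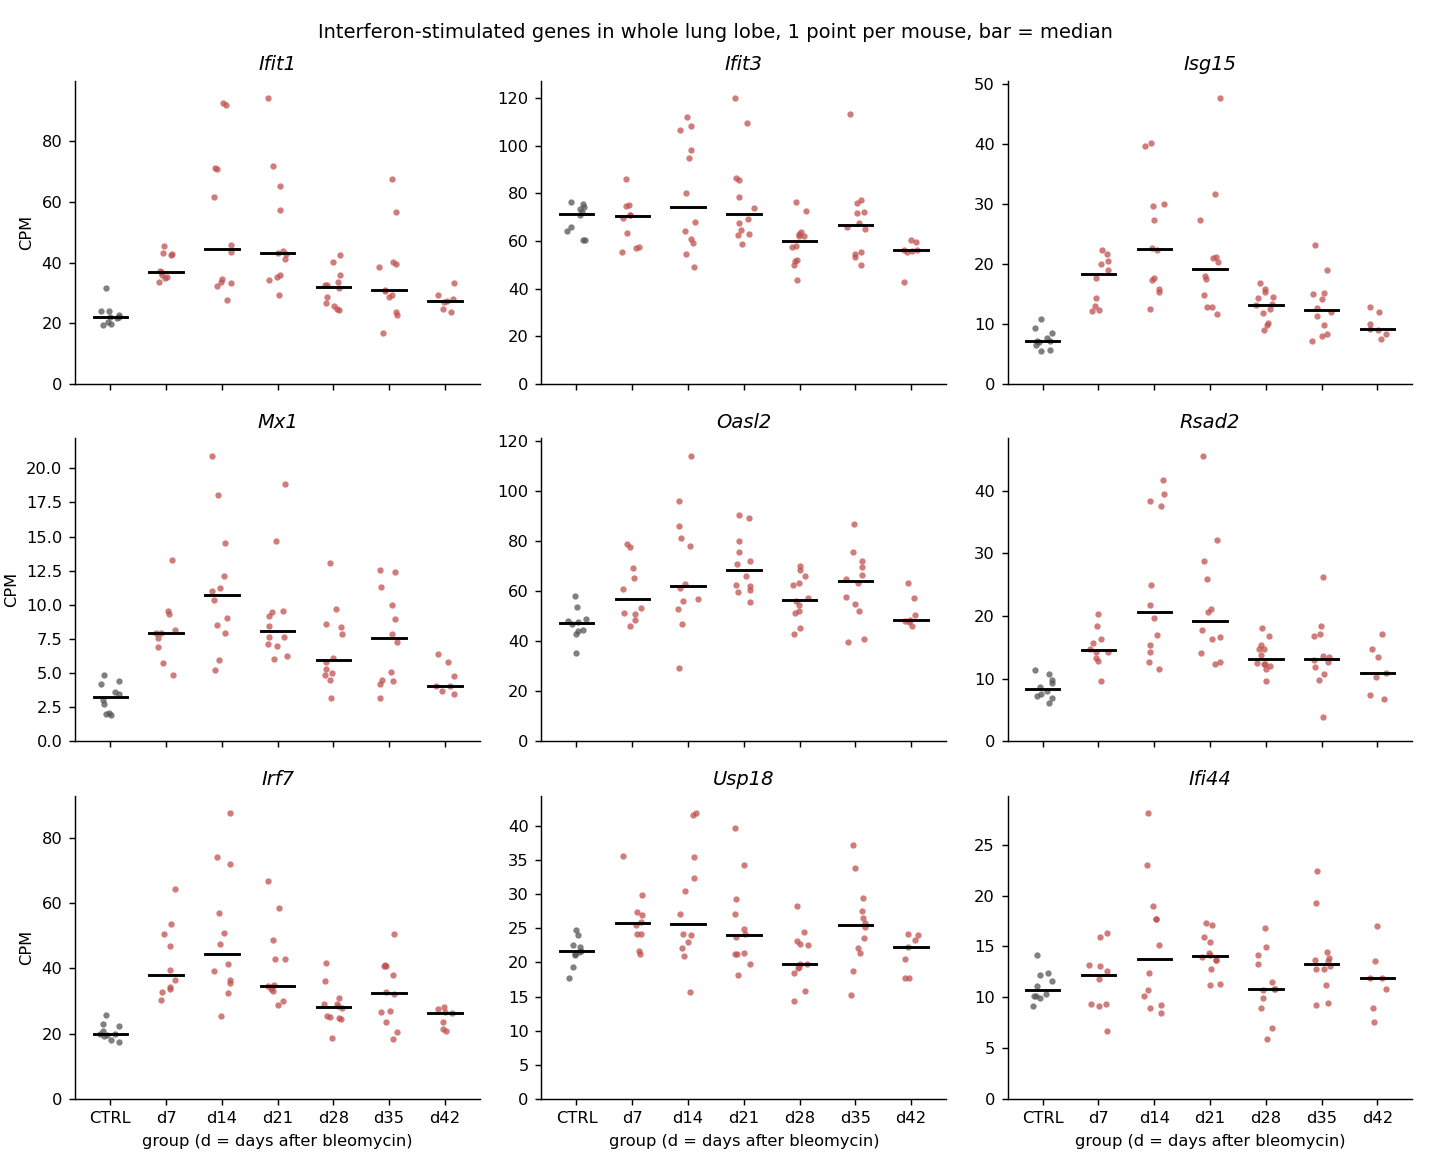
CPM on a linear axis from 0 (vertical axis) of each of the 9 genes in each mouse (points) by group (horizontal axis), with the median as a bar, for 10 CTRL mice, 10 mice on day 7, 12 on each of days 14 to 35 and 7 on day 42. *Isg15* shows no overlap between CTRL and days 7, 14 and 21, whereas *Ifit3* shows the same median of 71.5 CPM in CTRL mice and on day 21.

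Per kilobase of exon, taken over the exons of all transcripts of a gene, *Ifit3* had the highest mean in CTRL mice, 39.7 CPM per kb. It was followed by *Isg15* (9.95), *Ifit1* (8.60), *Usp18* (7.76), *Oasl2* (7.38), *Irf7* (5.44), *Rsad2* (1.99), *Ifi44* (1.81) and *Mx1* (0.855). For *Irf7* these exons form 1 block of 3776 bases that spans the whole gene, so levels of different genes are only roughly comparable. On D14 the mean was 45.7 CPM per kb for *Ifit3*, 32.1 for *Isg15* and 2.97 for *Mx1*. All 9 genes were counted in every mouse, with 19 counts or more in each library.

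Between the days, the order of the group means had day 14 at the top for 8 genes and day 21 for *Oasl2*, and no gene's neighbours in that order differed (the smallest edgeR adjusted p, between day 21 and day 7 for *Rsad2*, was 0.0645). CTRL was the lowest group for 7 genes, whereas for *Usp18* days 28 and 42 and for *Ifit3* days 7, 28, 35 and 42 lay below it. The test of any difference among the 7 groups passed for all 9 genes (67.7% of all genes), with edgeR adjusted p between 2.57e-11 for *Isg15* and 0.0437 for *Ifi44*. From day 7 to day 14 all 9 log2FC were above 0 and 1 gene was called, *Rsad2* (log2FC 0.71 ± 0.21, edgeR adjusted p = 0.0125), when 9.44% of all genes were called higher. From day 14 to day 21 neither edgeR nor DESeq2 called any of the 9, and 0 had an unadjusted p under 0.05, when edgeR called 1.01% of all genes in either direction.

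From day 21 to day 28 all 9 genes had a log2FC under 0 and an unadjusted edgeR p under 0.05. The share of all genes under that unadjusted threshold is not given here, so this count has no background to be read against. After adjustment, edgeR called 2 of the 9 lower, when 0.308% of all genes were called lower. These were *Isg15* (log2FC -0.71 ± 0.18, edgeR adjusted p = 0.0355) and *Ifit1* (log2FC -0.65 ± 0.17, edgeR adjusted p = 0.0482). Both calls were close to the threshold, and the count ranged from 0 to 2 under other settings. From day 28 to 35 and from day 35 to 42 edgeR and DESeq2 called 0 of the 9, when edgeR called 1.26% and 0% of all genes, and 1 and 3 of the 9 had an unadjusted p under 0.05. Over the longer interval from day 14 to day 42, 8 of the 9 genes fell, when 18.8% of all genes were called lower. The log2FC was -1.30 ± 0.22 for *Isg15*, -1.29 ± 0.26 for *Mx1*, -1.09 ± 0.24 for *Rsad2*, -1.003 ± 0.18 for *Irf7* and -0.94 ± 0.21 for *Ifit1*, each with an edgeR adjusted p of at most 0.000311, and -0.37 ± 0.18 for *Ifi44*, which was not called (edgeR adjusted p = 0.11).

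BLEO-IPF mice of the same day differed widely from each other on some days, and on days 14, 21 and 35 the same mice tended to be high in most of the genes. The standard deviation of log2 CPM between mice, taken as the median over the 9 genes, was 0.193 in CTRL mice and 0.194 on D42, near the medians of all genes tested (0.169 and 0.183). It was 0.296 on D7, 0.545 on D14, 0.382 on D21, 0.268 on D28 and 0.448 on D35, against 0.226, 0.275, 0.225, 0.258 and 0.223 over all genes. The widest spread was thus on D14, where each of the 9 genes had an SD of at least 0.424.

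**Figure D3:**
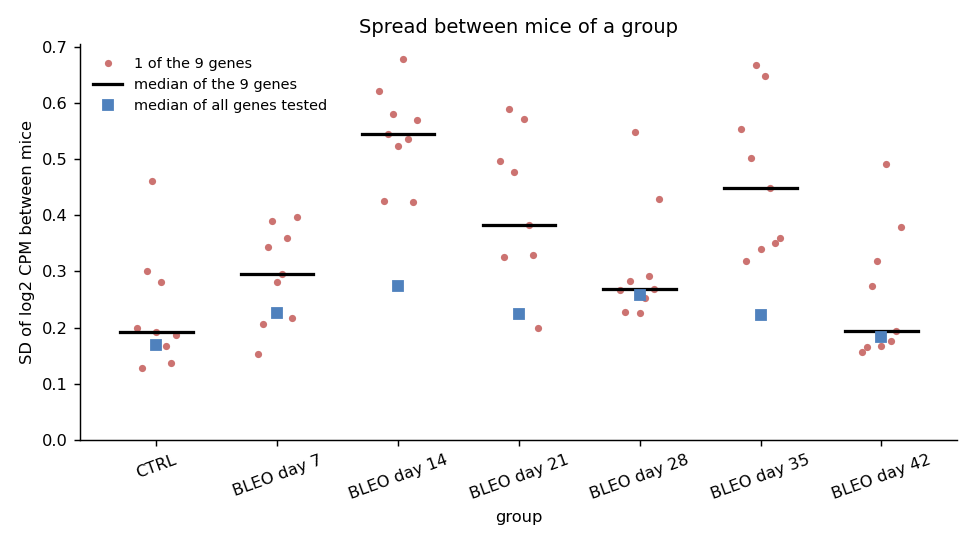
Standard deviation of log2 CPM between the mice of a group (vertical axis) by group (horizontal axis), with 1 point per gene, the median of the 9 genes as a bar and the median of all genes tested as a square. The bar lies highest on day 14 (0.545) and close to the square in CTRL mice and on days 28 and 42.

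On D14, mouse 7 was the highest in 6 genes and among the 3 highest in all 9. The 5 highest mice were the same mice (2, 6, 7, 9 and 12) for 7 of the 9 genes, *Mx1* and *Irf7* being the exceptions. For *Ifit1* these 5 mice lay between 61.6 and 92.8 CPM, and the other 7 between 27.6 and 45.8 CPM. In the other groups at most 3 genes had the same 5 highest mice, as on days 35 and 42. On D21, mouse 5 was the highest in 7 genes and mice 5 and 12 were among the 3 highest in all 9, and on D35 mouse 12 was the highest in 8 genes. At the low end, day 35 mouse 11 was the lowest in 5 genes and day 14 mouse 10 in 6. Leaving out any of these mice changed no call against CTRL except that of *Ifi44* on D14.

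Across the 36 pairs of genes, log2 CPM less the group mean was positively related in all 75 mice. Pearson's r ranged from 0.456 (*Mx1* and *Ifi44*) to 0.848 (*Ifit1* and *Rsad2*) with a median of 0.693, and Spearman's rho from 0.421 to 0.839 with a median of 0.657. All 36 pairs passed the threshold in a permutation test within groups, with an adjusted p of at most 0.00013 for r and 0.00047 for rho (100000 permutations, smallest possible p 1e-05). Without the 2 mice farthest from the median of the first gene, r ranged from 0.411 to 0.827. Within single groups the median r was 0.866 on D14, 0.806 on D21 and 0.825 on D35, against 0.343 in CTRL mice, 0.437 on D7, 0.446 on D28 and 0.496 on D42. The pairs share the same libraries and are not independent of each other, and the differences between groups were not tested. *Ifit3*, although not called against CTRL in the fit of all mice, was related to *Ifit1* with an r of 0.826.

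**Figure D4:**
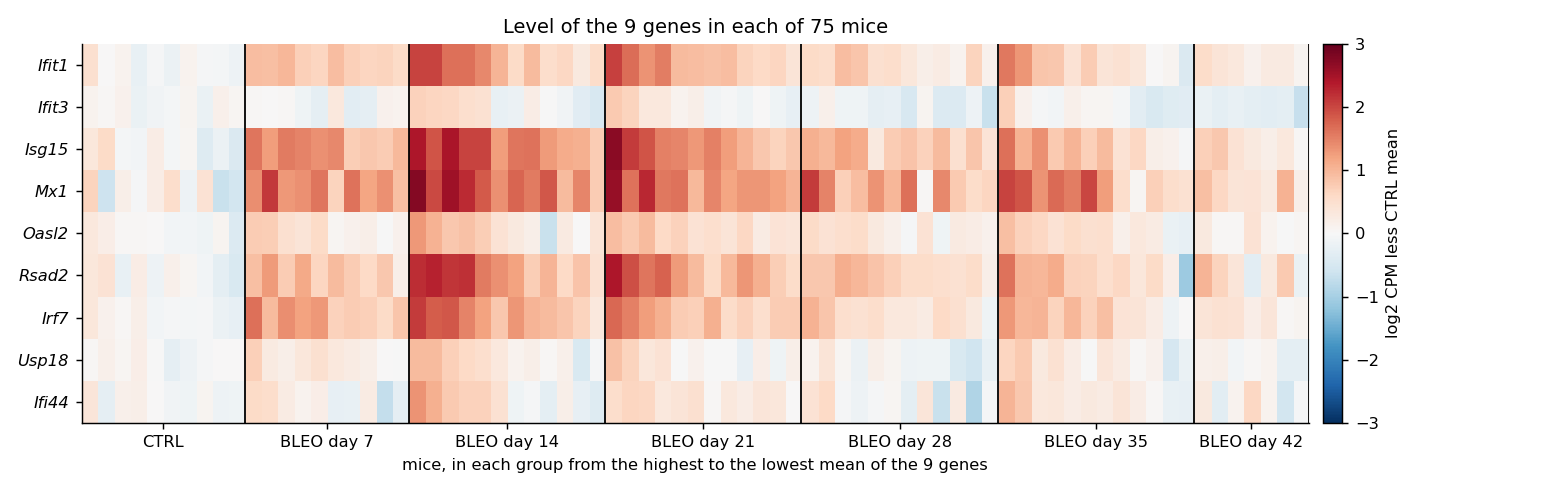
Log2 CPM less the CTRL mean (color, from -3 to 3) of the 9 genes (rows) in 75 mice (columns), ordered within each group from the highest to the lowest mean. Columns on days 14, 21 and 35 are high or low across most rows, and rows of *Ifit3*, *Usp18* and *Ifi44* are paler than that of *Mx1*, which rose by 1.79 on day 14.

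The genes whose levels were most like the mean of the 9 across the 75 mice, after removal of the group means, were *Rtp4* (Pearson's r = 0.825), *Dhx58* (0.792), *Oas1a* (0.781), *Ifit2* (0.745), *Oasl1* (0.740), *Zbp1* (0.713), *Mx2* (0.705), *Oas3* (0.704), *Irgm1* (0.682) and *Trim30a* (0.679). All 10 belonged to the lists of interferon pathway genes described next, which held 90 of the genes tested, and 30 of the 50 most alike genes did so. The median r over 16212 genes was 0.0046 and its 95th percentile 0.308. These values are a description over mice that share their libraries. On D14 against CTRL, *Rtp4* had a log2FC of 0.46, *Dhx58* of 0.67, *Oas3* of 1.91 and *Trim30a* of 0.24, all with an edgeR adjusted p under 0.05.

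Transcripts of the interferons themselves were at the limit of detection. The lists that follow are read against the shares of all genes called higher given above and against shares called lower of 20.9%, 29.9%, 25.8%, 19.2%, 13% and 11% on the 6 successive days. None of 11 ligand genes passed the filter. *Ifnb1* had at most 1 count, seen in 3 of 75 mice, and *Ifna1*, *Ifna2*, *Ifna4*, *Ifnk* and *Ifnl2* also had at most 1 count in any mouse. *Ifna5*, *Ifne* and *Ifnl3* had 0 counts in all 75, and since a count of 0 allows up to 3, a low level was not detectable at this depth. *Ifng*, made by T cells and NK cells, was the most often detected, with at most 5 counts and a count in 58 of 75 mice. Its median was 0.179 CPM in CTRL mice and 0.101 on D14.

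Of the 6 receptor chains, 1 was called higher on D7, 2 on D14 and 3 on D21, and the median log2FC of the 6 was 0.05 on D14. *Ifngr2*, the signalling chain of the IFN-gamma receptor, was higher on every day, with ranges of 64.5 to 77.6 CPM in CTRL mice and 95.1 to 129 on D14 that did not overlap (log2FC 0.68 ± 0.06, edgeR adjusted p = 9.14e-15) and a log2FC of 0.31 on D42. *Ifnar1*, a chain of the type I receptor, was higher on days 14 and 21 by 0.26 and 0.16 on the log2 scale. *Ifnlr1*, the type III receptor chain, was lower on D14 (log2FC -0.21 ± 0.10, edgeR adjusted p = 0.0495).

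Of 14 nucleic acid sensors and adaptors tested, 7 were called higher on D7, 9 on D14, 9 on D21, 6 on D28, 7 on D35 and 3 on D42, and at most 1 lower on any day. Their median log2FC was 0.56 on D14 and 0.11 on D42. *Tmem173* encodes STING, the adaptor that relays cytosolic DNA. It ranged from 13.8 to 20.4 CPM in CTRL mice and from 36.8 to 66.02 on D14, a log2FC of 1.51 ± 0.16 (edgeR adjusted p = 1.8e-12), and was still higher by 0.84 ± 0.18 on D42 (edgeR adjusted p = 0.000275). *Zbp1*, a sensor of Z-form nucleic acids, had a log2FC of 1.42 ± 0.19 on D14 and 0.47 ± 0.22 on D42 (edgeR adjusted p = 4.09e-09 and 0.112). *Myd88*, the adaptor of most Toll-like receptors, had a log2FC of 0.69 ± 0.08 on D14 and 0.42 ± 0.09 on D42, called on both days. *Trex1* had 0 counts in every mouse and was not tested, and whether its reads were lost in the counting was not examined.

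Among 10 JAK, STAT and IRF genes, 5 were called higher and 3 lower on D14 (32.4% and 29.9% of all genes), with a median log2FC of 0.11. With library sizes or upper quartile factors as the scaling, 3 were called higher. *Irf5*, an interferon regulatory factor of myeloid cells, was higher on every day (log2FC 0.95 ± 0.11 on D14 and 0.46 ± 0.13 on D42, edgeR adjusted p = 7.35e-11 and 0.00541), and *Jak2*, the kinase of the IFN-gamma receptor among others, was higher on days 7, 14 and 21 (0.30, 0.37 and 0.21 on the log2 scale). *Irf2*, which can repress interferon-stimulated genes, was lower on days 7 to 35, most on D14 (log2FC -0.43 ± 0.06, edgeR adjusted p = 2.51e-08).

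Of the 36 other type I interferon-stimulated genes, 13 were called higher and 3 lower on D7, 19 and 3 on D14, 18 and 2 on D21, 9 and 4 on D28, 11 and 3 on D35, and 6 and 3 on D42. The lower calls on D14 were 5 with library sizes or upper quartile factors. Their median log2FC was 0.17 on D14, against a median of 1.22 for the 9 genes. They ranged from -0.42 (*Ifit1bl2*) to 2.19 (*Oas1g*) on that day, against 0.20 (*Ifit3*) to 1.79 (*Mx1*) for the 9 genes. *Ifi204*, a sensor of the HIN-200 family, rose from 4.44 to 8.01 CPM in CTRL mice to 9.27 to 36.5 on D14 (log2FC 1.95 ± 0.24, edgeR adjusted p = 1.44e-10). *Oas1a*, an oligoadenylate synthetase, was higher on every day, with a log2FC of 1.40 ± 0.19 on D14 and 0.87 ± 0.21 on D42 (edgeR adjusted p = 1.51e-09 and 0.00139). *Ifitm3*, which blocks entry of viruses, was higher on days 7, 14 and 21 (0.48, 0.44 and 0.26 on the log2 scale) and had a log2FC of 0.04 on D42.

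Among the 18 genes known to respond to IFN-gamma, 8 were called higher and 6 lower on D14 (32.4% and 29.9% of all genes). On D42 it was 5 and 3 (13.6% and 11% of all genes). The median log2FC of the 18 was 0.10 on D14 and 0.20 on D42. *Cxcl10*, a chemokine that attracts T cells, rose from 0.511 to 2.07 CPM in CTRL mice to 6.62 to 24.5 on D7 and 4.00 to 35.7 on D14 (log2FC 3.44 and 3.499), and had a log2FC of 1.64 ± 0.45 on D42 (edgeR adjusted p = 0.00483). *Nos2*, the inducible nitric oxide synthase, was called from day 14 to day 42 with a log2FC between 1.39 and 1.76. *Gbp7*, a guanylate-binding GTPase, fell on every day, with a log2FC of -0.62 ± 0.11 on D14 and -0.46 ± 0.12 on D42 (edgeR adjusted p = 7.88e-07 and 0.00419). Of the 6 negative regulators, 4 were called higher and 1 lower on days 7 to 28, with a median log2FC of 0.37 on D14. *Socs3*, an inhibitor of cytokine receptors, went from 32.4 to 56.9 CPM in CTRL mice to 107 to 309 on D14 (log2FC 2.07 ± 0.23, edgeR adjusted p = 9.95e-12) and was higher on D42 by 1.04 ± 0.25. *Ptpn2*, a phosphatase that acts on the JAK-STAT pathway, was higher on every day by 0.29 to 0.59 on the log2 scale, and *Pias1*, an inhibitor of activated STAT proteins, was lower on days 7 to 35, and on D14 it fell by 0.52 on the log2 scale.

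**Figure D5:**
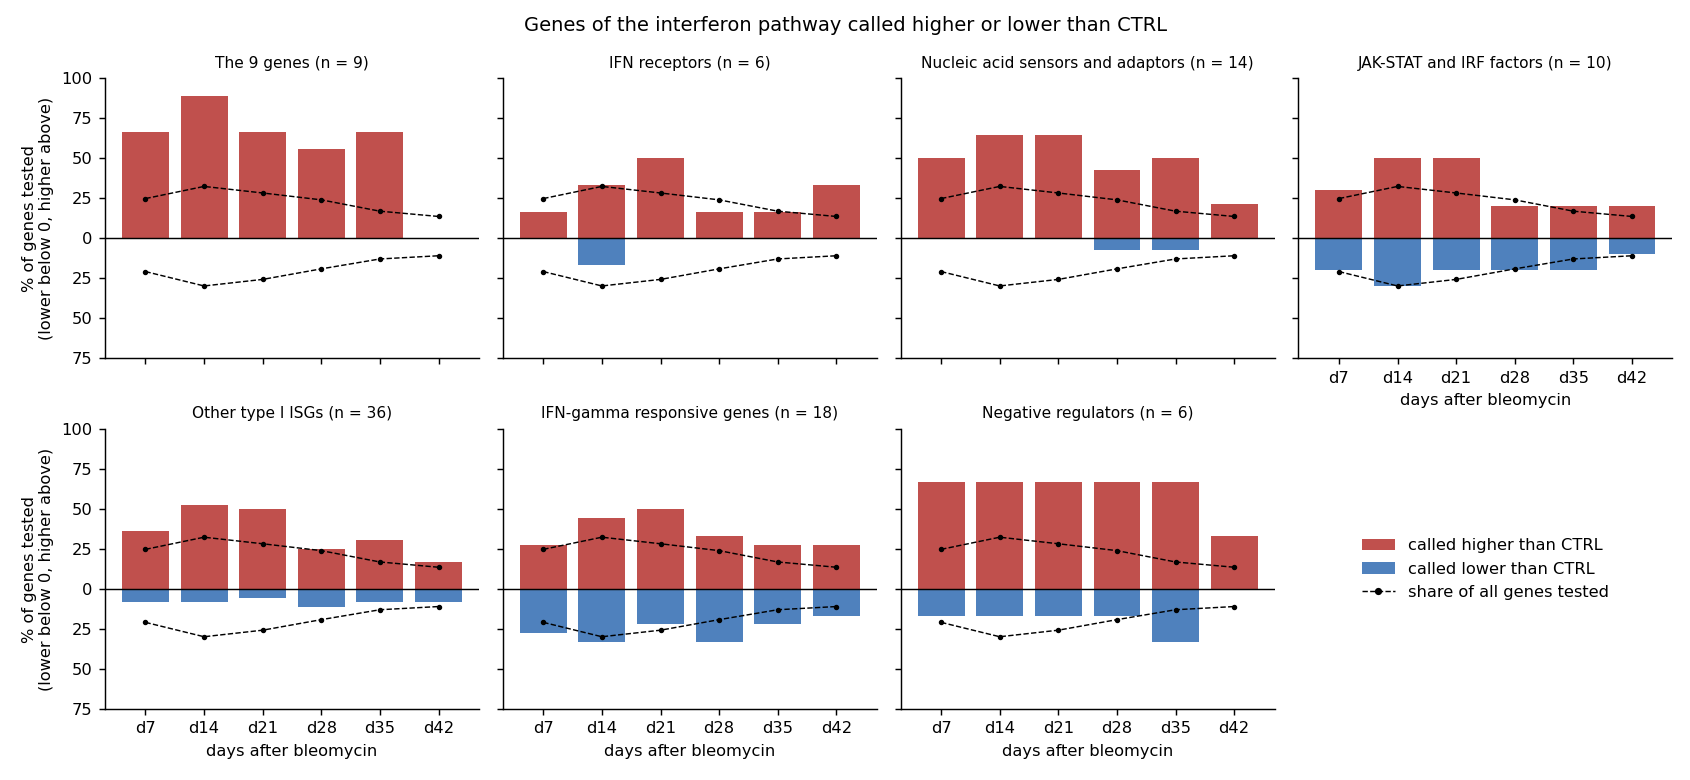
Percent of genes tested (vertical axis, higher above 0 and lower below it) that edgeR called against CTRL on each day after BLEO (horizontal axis), for the 9 genes and 6 lists of the interferon pathway, with the share of all genes as dashed lines. The 9 genes reach 8 of 9 on day 14 and 0 of 9 on day 42. Bars of IFN-gamma responsive genes extend to both sides, as do the dashed lines of all genes.

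Markers of several cell types changed after BLEO, some upward and some downward, and their part in the results was not tested. Not all lists of markers are described. Of 5 fibroblast markers, 2 were called higher on D7, 4 on D14, 3 on each of D21, D28 and D35 and 0 on D42. All 4 B cell markers were called lower on D7, D14 and D21, and 4 of 5 endothelial markers on D14. The markers of interstitial and monocyte-derived macrophages, *C1qa*, *C1qb*, *C1qc*, *Apoe* and *Trem2*, were all called higher on days 14 to 42 and 4 of the 5 on D7. Their summed level was 593 to 770.2 CPM in CTRL mice, 884 to 1846 on D7 and 1679 to 8112 on D14. It was 1469 to 3092 on D21 and 893 to 2047 on D42, so it remained above CTRL on D42. Most of the sum was *Apoe*, with a median of 563 CPM in CTRL mice and 2065 on D14. The medians of the sum were 658 and 2824 CPM. Of 5 markers of classical monocytes 3 were called higher and 1 lower on days 7, 14 and 21, at sums of 121 to 228 CPM in CTRL mice and 170 to 410 on D14. Of 6 epithelial markers 5 were called lower on D14, where their sum was 8051 to 34489 CPM, against 36786 to 47154 in CTRL mice, and 0 on D42. All 5 NK cell markers were called lower on every day, at 28.4 to 54.3 CPM in CTRL mice and 1.76 to 25.8 on D14. Markers of plasmacytoid dendritic cells summed to 8.00 to 16.8 CPM in CTRL mice and 3.27 to 13.4 on D14, where 2 of the 4 tested were called lower and *Klk1* was too low to test. *Siglech* had a median of 2.96 CPM in CTRL mice and 1.46 on D14 (log2FC -0.71). The log2FC on D14 was -0.81 for *Ccr9* and -0.46 for *Cox6a2*, whereas *Pacsin1* went the other way (0.13). The median of the sum was 11.6 CPM in CTRL mice, 8.24 on D14, 13.7 on D28 and 13.9 on D35. On D28, 1 of these markers was called higher, and the sum ranged from 4.72 to 48.2 CPM. The log2FC on D28 was 0.97 for *Cox6a2*, 0.43 for *Pacsin1*, 0.02 for *Siglech* and -0.10 for *Ccr9*.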

How the data were processed

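The authors prepared stranded libraries from poly(A) RNA, sequenced them single-end and aligned the reads with STAR 2.7.0f to GRCm38 with Ensembl release 96, and deposited raw counts per gene. The counting program and its treatment of strand and multiply mapped reads are not given in the sources used here. No batch is labelled. From the counts, CPM with TMM factors and tests were computed in R 4.3.3 with edgeR 4.0.16 (filterByExpr, robust quasi-likelihood F test), in 1 fit of 75 mice with 1 mean per group and 21 contrasts, adjusted by the Benjamini-Hochberg method over 16221 genes at 0.05. Errors are standard errors of the log2FC unless called SD. Deviations between mice used log2 CPM with a prior count of 2. Python 3.11.15 was used for tabulation and plots. Alternatives were library size or upper quartile scaling, DESeq2 1.42.0, no filter, at least 10 counts in every mouse, only the groups compared, a replicate block, an absolute log2FC of at least 0.5 and leaving out each mouse. In simulated counts for a comparison of day 14 with CTRL, among 16111 genes, the fit recovered 60 of 68 genes changed 1.5-fold. The simulation changed few genes and gave each gene the same spread in every group, unlike these data. That recovery may therefore not hold for the real mice of day 14.

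The 9 genes, the lists and the tests were chosen with earlier results of these data known. Of the genes of these lists, 2 are not reported here. Named list genes are the 3 per list with the smallest p over the 7 groups and the 10 genes most like the 9, unless stated otherwise. The edgeR p-values set differences between group means against the spread between mice, which were separate animals. No pair of libraries within a group was a duplicate (375 pairs, lowest chi-square per degree of freedom 3.88).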

Additional observations from a re-analysis of the deposited data

Results flagged for a closer look

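In CTRL mice, *Ifit1* was highest in mouse 5 at 31.7 CPM, farther from the other mice than Dixon's critical value allows, and on day 42 *Ifit3* was lowest in mouse 1 at 42.8 CPM by the same criterion. In all 27 sets of mice were examined, and chance alone passes this criterion in about 1 of 20.

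Changes against CTRL differed between days for several genes by a contrast of the days in the edgeR fit. *Rsad2* was higher on day 14 than on day 7 by 0.71 on the log2 scale. From day 21 to day 28 *Isg15* changed by -0.71 and *Ifit1* by -0.65. From day 14 to day 42 the log2FC was -1.30 for *Isg15*, -1.29 for *Mx1*, -1.09 for *Rsad2*, -1.003 for *Irf7*, -0.94 for *Ifit1*, -0.53 for *Ifit3*, -0.41 for *Oasl2* and -0.40 for *Usp18*, with edgeR adjusted p between 5.37e-06 and 0.0242.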

How the results depend on the processing

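No log2FC of the 9 genes against CTRL changed sign after a call under any alternative, and scaling choices moved the median of all genes by at most 0.03 on the log2 scale. On day 28, 3 rather than 5 of the 9 genes were called higher when an absolute log2FC of at least 0.5 was required. In fits of only the groups compared, 5 genes were called higher and 1 lower on day 42, against 0 and 0, and 1 (*Ifit3*) lower on day 28, against 0. The shares of all genes called in those fits are not given here, so the counts cannot be set against them. Between days 28 and 21, the 2 genes called lower became 0 with library size scaling, with no filter, with at least 10 counts in every mouse, with the replicate block and in a fit of only the groups compared, and 1 with upper quartile factors. The cause was not tested. Without each mouse in turn, the number called higher was 5 to 6 on day 7, 7 to 8 on day 14, 6 to 7 on day 21, 4 to 6 on day 28, 6 on day 35 and 0 on day 42. Deviations of mice that share a replicate number had a median r of 0.006 (204 pairs), against 0.002 for 2196 other pairs. Single pairs ranged from -0.538 to 0.569 and from -0.625 to 0.586, so the medians cannot show whether the numbers pair the mice. With the replicate block 1 gene was called lower on day 42 (*Ifit3*, log2FC -0.37, edgeR adjusted p = 0.0437), and the counts against CTRL were otherwise 6, 8, 6, 5, 6 and 0. At this depth the interferon genes themselves could not be compared.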
